A study of Rattus norvegicus with 19 samples.

Results

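Rat liver expression was described for 8 genes of foreign-compound handling: the xenobiotic receptor genes Nr1i3, Nr1i2 and Ahr, the P450 reductase gene Por, and the flavin monooxygenase genes Fmo1, Fmo2, Fmo4 and Fmo5. The members were the non-control array probes that carry 1 of these names in the scanner files or under the current symbol of their accession or synonym. This gave 9 of 41012 probes and 8 of 15291 named genes, with 2 probes for Nr1i3 and 1 for each of the other genes. Livers came from male Wistar rats put on 1 of 3 diets at 8 weeks of age and kept on it for 4 months. The high fat group (HF, 6 rats) received 60% of its energy as fat, 20% as protein and 20% as carbohydrate. The high protein group (HP, 6 rats) received 45% as protein, mainly casein, 45% as carbohydrate and 10% as fat. The control group (Control, 7 rats) received 70% as carbohydrate, 20% as protein and 10% as fat. Fat or protein took the place of carbohydrate, so HF and Control differ in the share of both fat and carbohydrate. The rats were housed singly, with lights coming on in the evening, and were killed fed in the early morning. The study's title calls the intake isocaloric.

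Every array compared the Cy5-labelled RNA of a single rat with a Cy3-labelled pool to which livers gave equal amounts, and dyes were not swapped. The pool was made from the Cy3-labelled fractions of sample RNA, so each value is relative to a mixture of such livers. A value is therefore the log2 ratio of 1 liver to that pool, and 0 means equal to the pool. Values of different genes are not levels and are not ranked against each other. Each sample is 1 rat, so the spread between samples is that between rats measured once each.

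Nr1i3 encodes the constitutive androstane receptor (CAR) and Nr1i2 the pregnane X receptor (PXR), nuclear receptors of hepatocytes that pair with retinoid X receptors and switch on P450, conjugation and transporter genes when drugs, steroids or bile acids are present. Ahr encodes the aryl hydrocarbon receptor, which pairs with ARNT and drives Cyp1a genes. Por encodes NADPH-cytochrome P450 reductase, the flavoprotein that passes electrons from NADPH to every microsomal P450. The FMO enzymes use NADPH and a bound flavin to add oxygen to the nitrogen or sulfur of soft nucleophiles, without POR or heme. Liver is known for high expression of Fmo1 and Fmo5 in rodents, and lung for Fmo2. The human FMO5 enzyme differs from its relatives in catalysing Baeyer-Villiger oxidation of ketones.

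In rn4 coordinates given by the array files, the Nr1i3 probes lie on the plus strand of chromosome 13. Probe A_43_P12344 is at chr13:87107041-87107191 and probe A_44_P316002 at chr13:87107161-87107220, so their positions overlap. The Nr1i2 probe A_43_P12749 is at chr11:64276060-64276119 on the plus strand. The Ahr probe A_43_P15262 is at chr6:54203014-54203073 and the Por probe A_44_P402375 at chr12:22079298-22079446, both on the minus strand. Fmo4 (A_44_P170368, chr13:78476878-78477668), Fmo1 (A_44_P283508, chr13:78504208-78504267) and Fmo2 (A_44_P486312, chr13:78546402-78546461) lie on the minus strand of chromosome 13 as neighbours. The Fmo4 and Fmo1 probes are 27.33 kb apart, and the Fmo1 and Fmo2 probes 42.194 kb apart. Fmo5 (A_42_P720077) lies elsewhere, at chr2:192489734-192489793 on the plus strand. Exon and UTR positions in rn4 were not used here.

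Upstream sequence was available for 7 of the 8 members (not Fmo4) as the 250 bases before the gene start in RefSeq's GRCr8 table, a different build from the probe positions. It is shown for Nr1i3, Fmo1 and Fmo5, which had the largest HF over Control values, and for Por, the electron donor of the P450 system. Letters run 5′ to 3′ on the gene's strand, and capitals mark matches on either strand to AGGTCA, the half-site of nuclear receptors, or to GCGTG, the core of the site bound by AHR with ARNT.
Nr1i3, chr13:86165170-86165419, plus strand: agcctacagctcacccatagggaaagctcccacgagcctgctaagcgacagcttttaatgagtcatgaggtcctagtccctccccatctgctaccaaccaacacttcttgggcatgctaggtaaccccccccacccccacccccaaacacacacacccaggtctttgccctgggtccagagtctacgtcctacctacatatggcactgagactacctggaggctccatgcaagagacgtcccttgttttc
Fmo1, chr13:77747667-77747916, minus strand: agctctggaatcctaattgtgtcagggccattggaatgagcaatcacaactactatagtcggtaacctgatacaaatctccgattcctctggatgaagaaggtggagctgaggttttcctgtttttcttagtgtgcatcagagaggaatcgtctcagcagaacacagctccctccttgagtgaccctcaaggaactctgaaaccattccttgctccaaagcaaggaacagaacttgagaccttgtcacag
Fmo5, chr2:187910714-187910963, plus strand: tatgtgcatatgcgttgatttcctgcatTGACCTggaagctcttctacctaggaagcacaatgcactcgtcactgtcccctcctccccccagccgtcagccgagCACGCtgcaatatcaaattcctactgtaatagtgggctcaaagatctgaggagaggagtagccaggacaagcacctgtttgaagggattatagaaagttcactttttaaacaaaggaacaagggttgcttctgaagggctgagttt
Por, chr12:26635810-26636059, minus strand: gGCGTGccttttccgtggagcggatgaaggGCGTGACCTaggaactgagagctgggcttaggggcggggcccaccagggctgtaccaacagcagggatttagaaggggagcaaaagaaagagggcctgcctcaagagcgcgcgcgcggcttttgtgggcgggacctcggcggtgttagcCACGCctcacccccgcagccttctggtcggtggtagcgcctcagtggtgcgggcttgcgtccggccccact
The Nr1i3 and Fmo1 windows held neither motif. The Fmo5 window held AGGTCA and GCGTG, both as their reverse complements, starting at positions -222 and -146 from the gene start. The Por window held GCGTG at -249, -220 and, as its reverse complement, -71. It also held AGGTCA as its reverse complement at -217, where that match shares letters with the GCGTG match at -220. The Fmo2 window held AGGTCA as its reverse complement at -119, and the Nr1i2 and Ahr windows held neither. Among 33469 windows of this length, 14.1% held AGGTCA and 25.9% held GCGTG on either strand. The E-box CACGTG, held by 5.59% of all windows, matched in none of the 7. Nor did the DR4 repeat of AGGTCA or the palindromic HNF1 site, each held by 0.00299% of all windows. A match is a description of letters only.

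Of the 9 probes, 8 (7 genes) had Cy5 signal well above background on all 19 arrays and entered the test with 25292 kept probes, and none was saturated. The Ahr probe was not well above background on any array in either channel, with Cy5 signals between 40.1 and 52.5 against local backgrounds between 27 and 40.5. Ahr has only a bound in every group here, so no diet comparison was made for it. The Fmo2 and Fmo4 probes were dim, with median Cy5 signals of 155 and 116.

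The liver label was checked on 8 hepatocyte markers, all well above background on 19 of 19 arrays. In Cy5 54.2% to 67.5% of spots per array exceeded background clearly, and in Cy3 47.2% to 55.1%. Control 6 stood apart: its log ratios had an SD of 0.371, against 0.178 to 0.241 on the other arrays, and its lymphocyte marker median was 2.74, against -1.38 to -0.94 in the other 18 livers. Counts are therefore also given without it. The lowest correlation between 2 livers over all kept probes was -0.32, between HP 3 and Control 6. The arrays lay on 5 slides, numbered here by first appearance. Slides 1, 2 and 3 held both HF and Control, slides 1, 4 and 5 both HP and Control, and slide 1 alone both HF and HP.

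HF livers had more Nr1i3, Fmo1, Fmo5 and, by a small margin, Fmo4 RNA than Control livers. In the limma fit 5 of 8 member probes rose and none fell at a Benjamini-Hochberg adjusted p under 0.05. Of all kept probes 3.46% were called, 1.72% higher and 1.73% lower. All 8 had a log2 fold above 0, where 46% of kept probes did, and the member median was 0.96 against -0.011 over all kept probes. The 8 probes stand for 7 genes. Both overlapping Nr1i3 probes are among the 5 called, so that gene enters these figures with 2 probes. Without Control 6 the count was also 5 of 8. Members were chosen with earlier results of these data known. The member shares given here and below therefore describe the members and are no test of them as a set. In these bulk samples more cells of a type and more RNA per cell cannot be told apart. HP livers had no member probe past the threshold against Control.

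**Figure D1:**
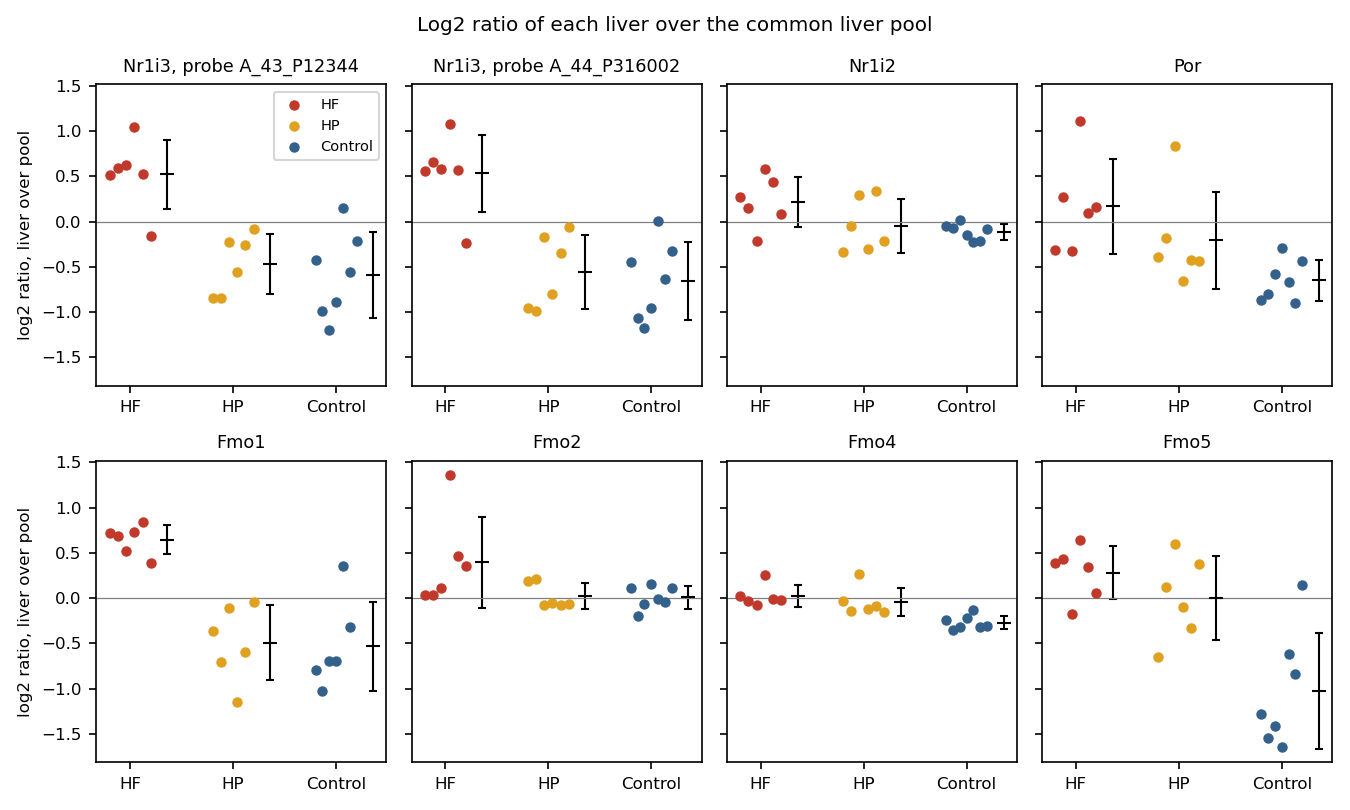
Log2 ratio of liver RNA over the common pool (vertical axis) for the 8 measured probes, 1 panel a probe, with HF, HP and Control from left to right. Points are livers and black marks the mean with 1 SD (HF n = 6, HP n = 6, Control n = 7, Fmo1 Control n = 6). The 6 HF livers lie above every HP and Control liver for Fmo1, and 5 of 6 do for Nr1i3.

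Nr1i3, the CAR gene, ran lowest, median and highest at -0.24, 0.57 and 1.08 in HF livers by probe A_44_P316002, against -1.18, -0.63 and 0.0064 in Control livers. The 6 HP livers ran -0.99, -0.57 and -0.06. HF 6 was the 1 HF liver inside the Control range, HF 4 was the highest of all, and Control 5 was the highest Control liver. The rise was 1.19 ± 0.22 on the log2 scale (SE, 2.28-fold, adjusted p = 0.00292 by limma). Probe A_43_P12344 gave 1.11 ± 0.21 (adjusted p = 0.00345), with HF livers at -0.16, 0.56 and 1.04 and Control livers at -1.20, -0.56 and 0.15. The probes are no independent replicates, since they overlap. Their values correlated at 0.994 over the 19 livers with a largest gap of 0.24.

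Against HP livers the rise of Nr1i3 in HF was nearly as large, at 1.09 ± 0.23 (adjusted p = 0.00559) and 0.99 ± 0.21 (adjusted p = 0.00749) by limma. HP livers did not separate from Control livers, with log2 folds of 0.10 (95% interval -0.35 to 0.56) and 0.12 (95% interval -0.31 to 0.55). The 2 comparisons of HF share the HF livers, so they are not independent of each other.

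Nr1i2, the PXR gene, passed in no comparison. HF livers ran -0.21, 0.21 and 0.58, HP livers -0.34, -0.13 and 0.34, and Control livers -0.22, -0.08 and 0.016. Of the 6 HF livers 5 lay above the highest Control liver, and HF 3 lay near the lowest. The log2 fold of HF over Control was 0.33 ± 0.12 (95% interval 0.07 to 0.59, adjusted p = 0.174 by limma), and of HP over Control 0.07 (adjusted p = 0.836). The spread was 0.28 in HF and 0.30 in HP livers, against 0.09 in Control livers (SD), and these SDs were not tested against each other.

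Por, the electron donor of the P450 enzymes, ran -0.32, 0.13 and 1.12 in HF livers, -0.66, -0.41 and 0.84 in HP livers, and -0.90, -0.67 and -0.30 in Control livers. HF 4 and HP 3 stood far above the other livers of their diets. Against Control livers, the log2 fold was 0.82 ± 0.23 in HF (95% interval 0.35 to 1.29, adjusted p = 0.0513 by limma) and 0.44 ± 0.23 in HP (adjusted p = 0.386). The HF value sat on the threshold: it passed without HP 3 (adjusted p = 0.0127), HF 1 (0.0355), HF 3 (0.0402), Control 4 (0.0471) or HP 4 (0.0488), each adjusted p by limma, and it was 0.63 without HF 4 (adjusted p = 0.118). HP livers are no part of that contrast, and enter it only through the shared spread and the adjustment.

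**Figure D2:**
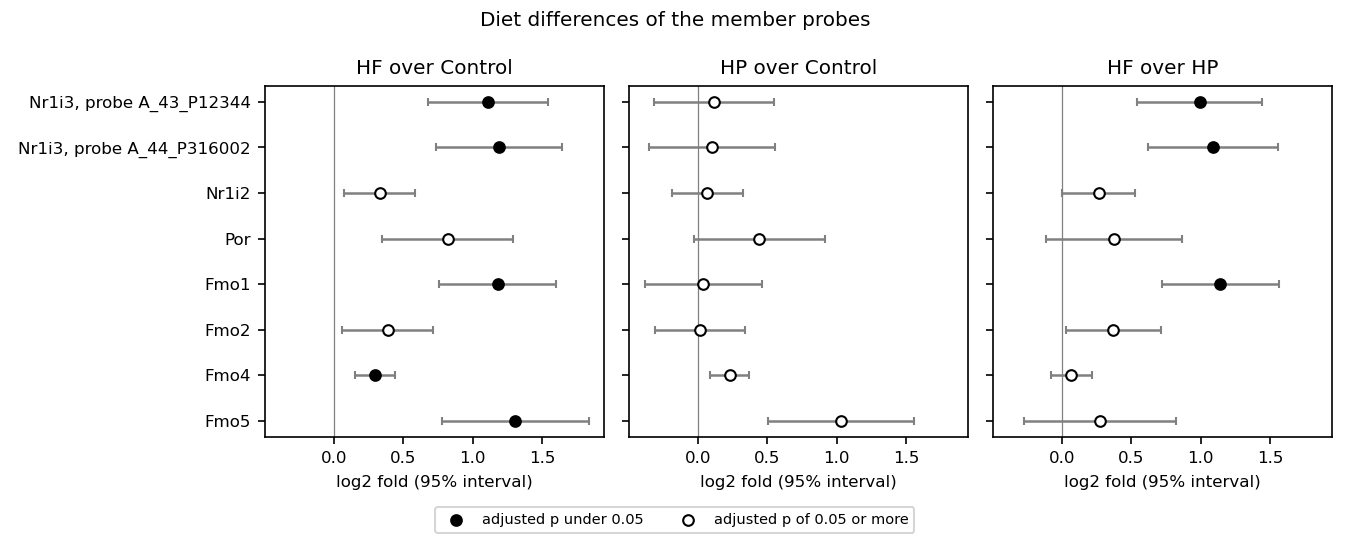
Log2 fold (horizontal axis) with its 95% interval for each member probe, 1 panel a comparison. Filled points have a limma adjusted p under 0.05: 5 in HF over Control, none in HP over Control and 3 in HF over HP, and every point lies above 0.

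Fmo1, the main oxygenase of the family in rat liver and kidney, separated the HF livers from the rest. HF livers ran 0.38, 0.70 and 0.84, HP livers -1.15, -0.48 and -0.04, and Control livers -1.03, -0.70 and 0.35. No HF value overlapped either other group, where 0.767% of kept probes were higher without overlap in HF over Control and 2.15% in HF over HP. The rise was 1.18 ± 0.20 over Control (2.26-fold, adjusted p = 0.00207 by limma) and 1.14 ± 0.20 over HP (adjusted p = 0.0019). HP over Control was 0.04 (95% interval -0.38 to 0.46). The SD was 0.16 in HF livers, against 0.41 in HP and 0.49 in Control livers. The Control value rests on 6 rats, because the Cy5 spot of Control 7 was marked non-uniform by the scanner software. Kept, it reads -0.22, and HF over Control is then 1.13 (adjusted p = 0.00182).

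Fmo5 rose most. HF livers ran -0.18, 0.37 and 0.64, HP livers -0.66, 0.013 and 0.60, and Control livers -1.64, -1.28 and 0.14. Control 7 lay at 0.14, above HF 3 and HF 6 and far above the other Control livers, of which the next highest was -0.61. The rise in HF was 1.31 ± 0.25 over Control (2.48-fold, adjusted p = 0.00463 by limma). HP over Control was 1.03 ± 0.25 (2.04-fold, 95% interval 0.50 to 1.56), short of the threshold (adjusted p = 0.0774 by limma). Without Control 7 it was 1.23 and passed (adjusted p = 0.0103). HF over HP was 0.28 (95% interval -0.27 to 0.82, adjusted p = 0.64 by limma), so a difference between these diets was not detected at this number of arrays.

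Fmo4, with a dim probe, ran -0.07, -0.016 and 0.26 in HF livers, -0.15, -0.11 and 0.27 in HP livers, and -0.35, -0.31 and -0.14 in Control livers. All HF livers lay above all Control livers, within a narrow range. The rise in HF was 0.29 ± 0.07 over Control (1.23-fold, adjusted p = 0.0171 by limma), and HP over Control was 0.23 ± 0.07 (adjusted p = 0.134). The HF call was lost with normexp fitted on every spot (0.22, adjusted p = 0.0931) and with Cy5 alone (0.24, adjusted p = 0.19). Fmo2, the lung form, ran 0.03, 0.23 and 1.36 in HF livers, -0.08, -0.06 and 0.22 in HP livers, and -0.20, -0.011 and 0.16 in Control livers. Its HF over Control value was 0.39 ± 0.16 (adjusted p = 0.222). HF 4 alone reached 1.36, and without that liver the fold was 0.19.

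Across the 3 diets, limma's F test was past the threshold for both Nr1i3 probes (adjusted p = 0.00298 and 0.00385), Fmo1 (0.00165), Fmo5 (0.00564) and Fmo4 (0.0202). It was not for Por (adjusted p = 0.075), Nr1i2 (0.196) or Fmo2 (0.212), and 6.58% of kept probes passed it. In HP over Control 0 of 8 member probes were called by limma, against 0.447% of kept probes (0.308% higher and 0.138% lower). There 2 of 8 (Fmo4 and Fmo5) had an unadjusted p under 0.05, against 14.4% of kept probes. All 8 had a log2 fold above 0, against 46.4%, and none was free of overlap, against 0.506%. In HF over HP the 3 probes of Nr1i3 and Fmo1 were called, all higher, against 7.08% of kept probes (3.27% higher and 3.81% lower). All 8 again had a log2 fold above 0, against 50.5% of kept probes.

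Slide was checked as a batch. With slide as a fixed block, HF over Control was 1.51 (adjusted p = 0.00326) and 1.43 (0.00324) for Nr1i3, 1.39 (0.0022) for Fmo1 and 1.68 (0.00134) for Fmo5, all by limma. Fmo4 kept its size (0.30) but not its call (adjusted p = 0.103), and Por stood at 0.72 (adjusted p = 0.233). With slide as a random block HF over Control was 1.21 and 1.13 for Nr1i3, 1.19 for Fmo1, 1.33 for Fmo5, 0.29 for Fmo4 and 0.81 for Por, with the calls of the fit without slide. Within slides 1, 2 and 3, HF minus Control was 1.00, 1.63 and 1.65 for Nr1i3 by probe A_44_P316002. It was 1.52, 1.47 and 1.35 for Fmo1, 1.67, 1.72 and 1.76 for Fmo5, 0.27, 0.23 and 0.40 for Fmo4, and 0.56, 0.52 and 1.04 for Por. For Fmo2 it was -0.07, 0.10 and 0.79, and for Nr1i2 0.33, 0.08 and 0.35. These differences rest on 1 to 3 arrays a diet and slide. Control 5, 6 and 7 lay on slides 4 and 5, which held no HF array, and enter none of them. For Fmo5 they read -0.61, -0.84 and 0.14, above the Control livers of slides 1, 2 and 3, of which the highest was -1.28. For Fmo1 Control 5 and 6 read 0.35 and -0.32, against at most -0.70 on those slides. No such order held for Nr1i3, Fmo4 or Por.

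**Figure D3:**
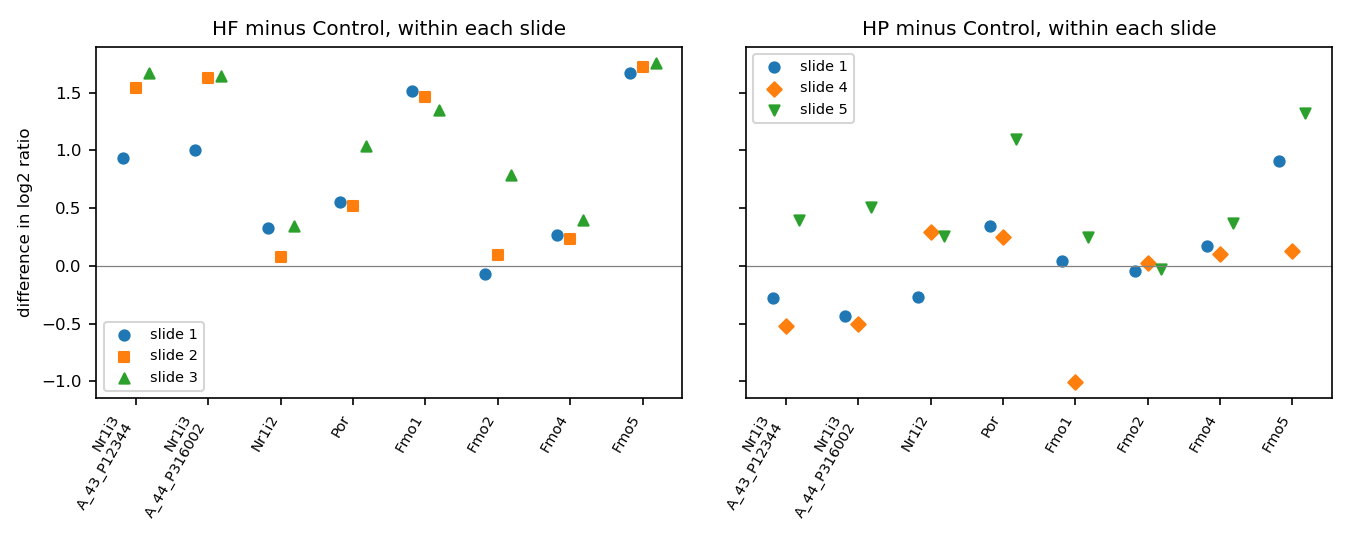
Difference in log2 ratio (vertical axis) between diet means on the same slide, for HF minus Control (left) and HP minus Control (right), 1 marker a slide. The HF differences of Nr1i3, Fmo1, Fmo5, Fmo4 and Por lie above 0 on all 3 slides, while the HP differences of Nr1i3 and Fmo1 lie on both sides of 0.

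HP minus Control on slides 1, 4 and 5 had no single direction for Nr1i3 by probe A_44_P316002 (-0.43, -0.50 and 0.51) or for Nr1i2 (-0.27, 0.30 and 0.26). For Fmo1 it was 0.04, -1.0 and 0.25, and on slide 4 Control 5 was the only Control liver with a value. It was above 0 on each for Fmo5 (0.91, 0.13 and 1.33), Fmo4 (0.17, 0.11 and 0.37) and Por (0.35, 0.25 and 1.1). Slide 5 has Control 6 as its only Control liver. With slide as a fixed block the HP over Control value of Fmo5 was 0.72 (adjusted p = 0.116 by limma). HF over HP with this block was 1.64 (adjusted p = 0.00801) and 1.54 (0.00801) for Nr1i3, 1.62 (0.00647) for Fmo1 and 0.96 (0.0946) for Fmo5. Slide 1, the only slide with both diets, gave 1.43 and 1.21 for Nr1i3, 1.48 for Fmo1 and 0.77 for Fmo5, from 1 HF and 2 HP livers.

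Markers of pericentral hepatocytes, the zone around the central vein where many P450 genes are most active, moved with the HF group. Of 10 listed genes 9 were kept (not Lgr5), and 6 of 9 were called higher in HF over Control with a median of 0.73. The median of the list ran 0.31 to 0.53 in HF livers, -0.49 to 0.03 in HP livers and -0.89 to -0.02 in Control livers, so the HF livers did not overlap the others. Against HP livers 5 of 9 were called higher in HF livers, and none was called in HP over Control. The list contains Cyp2e1 and Cyp1a2. Of 10 periportal markers 1 was called lower in HF over Control, 4 were called higher in HP over Control, and 6 were called lower and 1 higher in HF over HP. Stellate cell markers had 2 of 7 higher in HF over Control, with list medians of -0.17 to 0.55 in HF livers and -0.25 to 0.21 in Control livers. Of 8 hepatocyte markers 3 were called lower in HF over HP and none in either comparison with Control. No lymphocyte, Kupffer cell, endothelial or cholangiocyte marker was called in any comparison by limma. The part of these markers in the values of Nr1i3, Fmo1 and Fmo5 was not tested.

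Genes that the receptors and POR act on were read from lists, with the probe of highest signal for each gene. Of 28 CAR and PXR target genes 25 had a probe on the array under their name, and all 25 were kept. Cyp2b1 and Cyp2b2 were not among the 25, so the list says nothing of them. In HF over Control 4 rose and 2 fell, with a list median of 0.03 against -0.011 over all kept probes. The steroid and drug hydroxylase genes Cyp3a2 (1.27 ± 0.14, adjusted p = 6.9e-05) and Cyp3a62 (1.13 ± 0.23, adjusted p = 0.00736) rose, as did Cyp2c6v1 (0.84 ± 0.17, adjusted p = 0.0061) and the carboxylesterase gene Ces2c (0.56 ± 0.14, adjusted p = 0.0256), all by limma. Thrsp, a promoter of lipogenesis, fell by 1.28 (adjusted p = 0.0125), and Cyp3a23-3a1, a classical PXR target, fell by 0.56 (adjusted p = 0.0441). Cyp3a and Cyp2c genes are close relatives, and cross-hybridisation between them was not tested. In HP over Control 0 of 25 passed. In HF over HP 4 rose, among them Cyp3a2 (1.24) and the drug exporter gene Abcb1a (0.36), and Thrsp fell by 1.56. In HF over HP 2 genes passed with slide as a fixed block, against 5 without it, and 8 passed without Control 6.

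Of 11 AHR target genes 9 were kept. In HF over Control 1 rose, Cyp1a2, which metabolises caffeine and aromatic amines, at 1.24 ± 0.21 (adjusted p = 0.00184 by limma). A second gene passed without Control 6, HP 4 or HF 1, a count taken without regard to direction. Next by p in the fit of all livers came Tiparp (-0.40, adjusted p = 0.0802), Ugt1a6 (-0.22, adjusted p = 0.0824) and Nqo1 (0.32, adjusted p = 0.185), all by limma. The other kept probe of Tiparp gave -0.14 (adjusted p = 0.252 by limma). Cyp1a1, the classical inducible AHR target, stood at 0.25 ± 0.24 (adjusted p = 0.67). In HP over Control the quinone reductase gene Nqo1 rose by 0.63 ± 0.12 (adjusted p = 0.0296 by limma). Cyp1a2 had 0.79 ± 0.21 there (adjusted p = 0.103 by limma), and its other kept probe 1.03 (adjusted p = 0.0649 by limma). Cyp1a1 had 0.59 ± 0.24 in HP over Control (adjusted p = 0.269 by limma). Over the 19 fits that each leave out 1 liver, the list had between 0 and 2 calls in HP over Control and none in 7 of them. It also had 0 calls there with slide as a fixed block and with normexp fitted on every spot. None passed in HF over HP, where the 3 probes of smallest p were Tiparp (-0.37), Gsta2 (-0.33) and Nqo1 (-0.31). There the other kept probes of Tiparp and Gsta2 gave smaller values, -0.10 and -0.11. Cyp1a2 had 0.45 in HF over HP (adjusted p = 0.26) and Cyp1a1 -0.34 (adjusted p = 0.508), both by limma. The list medians were -0.07, -0.03 and -0.17 in HF over Control, HP over Control and HF over HP.

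**Figure D4:**
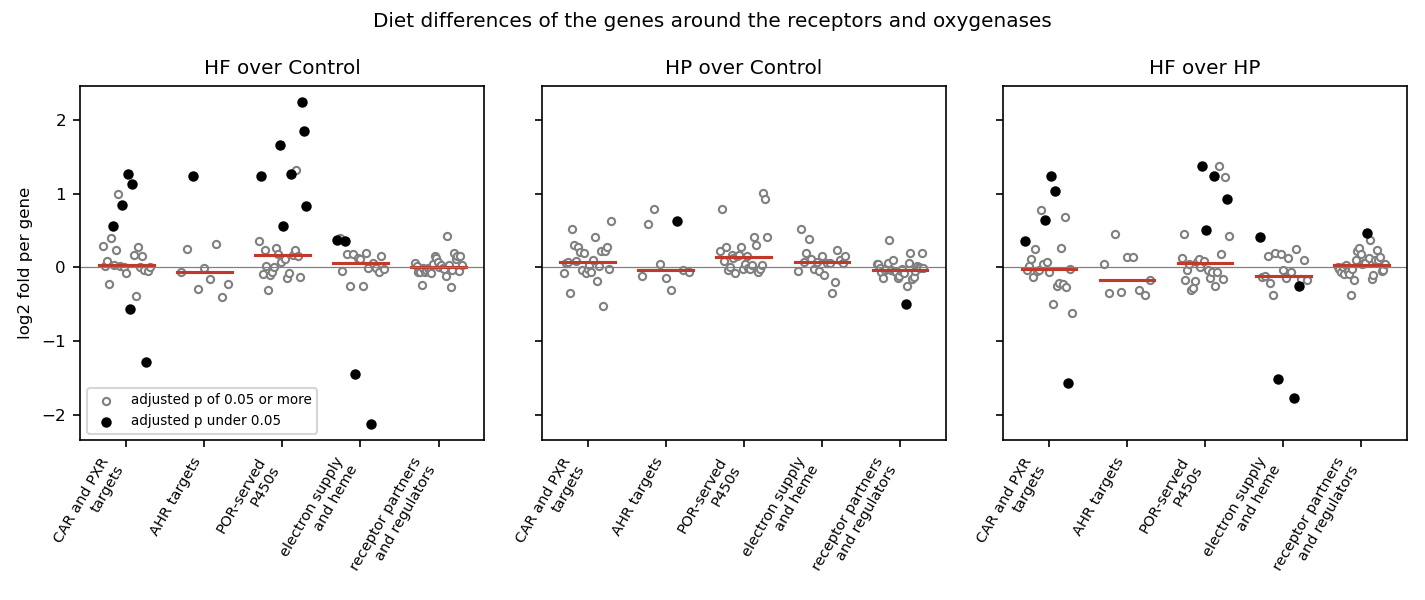
Log2 fold per gene (vertical axis) for 5 gene lists, 1 panel a comparison. Filled points have a limma adjusted p under 0.05 and red lines are list medians. In HF over Control the filled points above 0 are 4 CAR and PXR targets, 1 AHR target, 7 P450 genes and 2 genes of electron supply and heme.

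A list of 28 P450 genes whose enzymes draw electrons from POR had 26 kept. Of these 26, 7 rose and none fell in HF over Control (median 0.17). The bile acid synthesis genes Cyp7a1 (2.24 ± 0.52, adjusted p = 0.0186), Cyp7b1 (1.84 ± 0.21, adjusted p = 8.85e-05) and Cyp8b1 (0.83 ± 0.19, adjusted p = 0.0148) rose, all by limma. The other 4 were Cyp2e1, an ethanol and ketone oxidase (1.65 ± 0.20, adjusted p = 0.000165), Cyp2j4 (0.56 ± 0.10, adjusted p = 0.00269), and Cyp3a2 and Cyp1a2, which the target lists above also hold. The 26 are not every measured P450 gene: Cyp3a62, Cyp2c6v1 and Cyp3a23-3a1 stand in the CAR and PXR target list only. In HF over Control Cyp3a62 and Cyp2c6v1 rose, and Cyp3a23-3a1 fell by 0.56 (adjusted p = 0.0441 by limma). In HP over Control 0 of 26 passed, with Cyp7b1 at 0.92 (adjusted p = 0.0608). Against HP livers 4 rose in HF livers, namely Cyp3a2, Cyp2e1 (1.38), Cyp2j4 (0.50) and Cyp7b1 (0.92), and 2 passed with slide as a fixed block.

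Of 22 genes for electron supply and heme 19 were kept, and in HF over Control 2 rose and 2 fell (median 0.05). Cytochrome b5, a second electron donor to P450s, rose through Cyb5a (0.35 ± 0.09, adjusted p = 0.0231), and so did the heme synthesis gene Alad (0.36 ± 0.08, adjusted p = 0.00997), both by limma. Me1, which encodes the NADPH-producing malic enzyme, fell (-2.12 ± 0.40, adjusted p = 0.00347 by limma). The list had 1 call with slide as a fixed block. Alas1, the first enzyme of heme synthesis and a CAR and PXR target, had 0.40 ± 0.27 (adjusted p = 0.534), and Hmox1, which breaks heme down, -0.25 (adjusted p = 0.38). None of 19 passed in HP over Control. In HF over HP 1 rose and 3 fell: Alad rose by 0.41, and among those that fell, Me1 fell by 1.77 and Ppox fell by 0.25. None passed with slide as a fixed block.

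Of 33 receptor partners and regulators 30 were kept and none passed in HF over Control, where the median was 0.00062. Rxra, the shared partner of CAR and PXR, had 0.15 ± 0.07 (adjusted p = 0.324), and Arnt, the partner of AHR, 0.02 ± 0.06 (adjusted p = 0.878), by limma. The corepressor gene Ncor1 fell by 0.49 in HP over Control (adjusted p = 0.0422) and was 0.47 higher in HF over HP (adjusted p = 0.0111). Its 2 other kept probes gave -0.26 and -0.21 in HP over Control and 0.13 and 0.24 in HF over HP, and neither passed in either comparison. The HP over Control call of this list was lost in 13 of the 19 fits that each leave out 1 liver, and both calls were lost with slide as a fixed block.

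Members were also compared over livers after the mean of each diet was removed, with 1 probe a gene. All 21 pairs had a positive Pearson r (median 0.40), and 1 passed a permutation test within diets after adjustment over the 21 pairs. The pairs reuse 7 genes, and r over pairs of other kept probes was not computed, so these figures have no background. By rho, Nr1i3 and Fmo2 (-0.04) and Fmo1 and Fmo2 (-0.0072) were below 0. The r of Nr1i2 and Fmo1 was -0.08 with slide also removed. Nr1i3 and Fmo1 correlated at r = 0.68 over 18 livers (permutation p = 0.00233, adjusted p = 0.0489) and at rho = 0.62 (permutation p = 0.012, adjusted p = 0.126). Without Control 5 and HF 6, the livers farthest out in Nr1i3, r was 0.59. Without Control 6 r was 0.68 and no longer passed (adjusted permutation p = 0.0717). Over all livers with slide also removed r was 0.51. Fmo5 correlated with Nr1i3 at r = 0.64 (rho = 0.65, adjusted permutation p = 0.0571 and 0.126) and with Fmo1 at r = 0.63 (rho = 0.61, adjusted permutation p = 0.0602 and 0.13). With slide also removed, r was 0.39 for Nr1i3 and Fmo5 and 0.20 for Fmo1 and Fmo5. Por and Fmo4 had the highest r, 0.80 (rho = 0.42, adjusted permutation p = 0.0602 and 0.306), which rested on HF 4 and HP 3: without them r was 0.28, and over all livers, with slide removed, it was 0.88. No pair passed for rho.

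**Figure D5:**
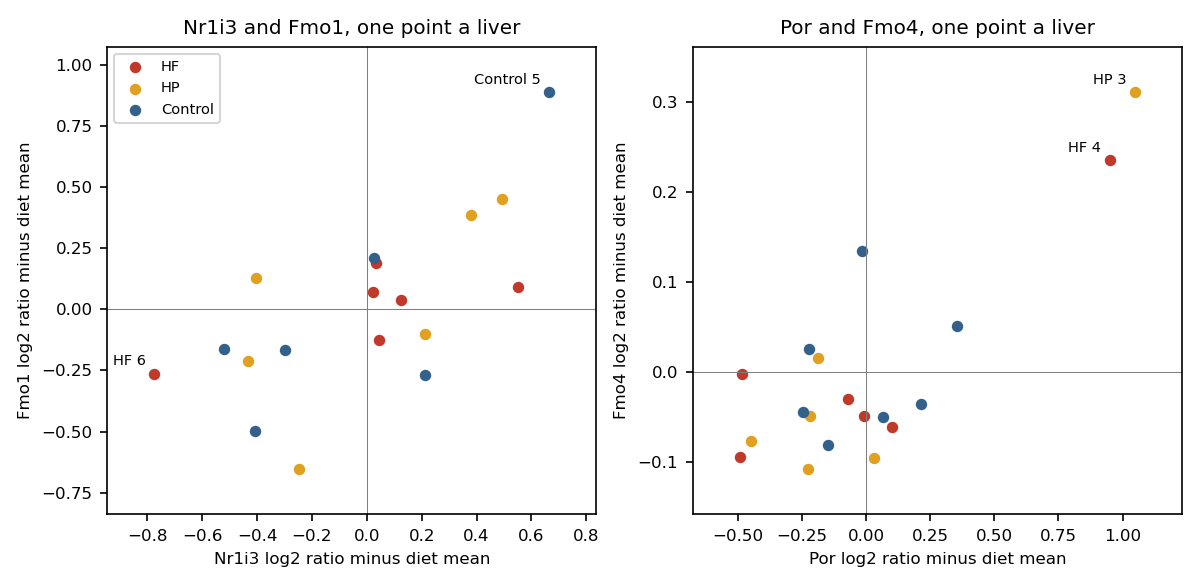
Log2 ratio minus the diet mean for Nr1i3 and Fmo1 (left) and Por and Fmo4 (right), 1 point a liver, coloured by diet. Control 5 and HF 6 lie at the ends of the left cloud, and HF 4 and HP 3 lie apart from all other livers in the right one.

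Likeness was read over 1 kept probe for each named gene, the one of highest signal, with values in all 18 livers other than Control 6. Symbols that start with LOC, RGD or MGC were left out. As a description, genes among the 3 most like each called member were named by Pearson r of the same deviations over these 18 livers. For Nr1i3 these included Egr3 (r = 0.79). For Fmo1, over 17 livers, they were Sytl5 (0.85), Cyp1a2 (0.83) and Trmt2a (0.80). For Fmo4 they included Sec23b (0.84) and Baz1b (0.81). HF 4 and HP 3 stood far above the other livers of their diets for Fmo4, and these r were not recomputed without them. Fmo5 was most like Ninj2 (0.91), Sdhb (0.86) and Chd1l (0.85), the last of which rose in HF over Control (0.49, adjusted p = 0.00985 by limma).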

How the data were processed

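RNA of 19 single livers, 1000 ng each, was measured on Agilent 4x44K 2-colour arrays. The deposited scanner files give spot intensity and local background, read with Agilent Feature Extraction 10.5.1.1, per the submitters' processing notes. The authors also deposited a matrix of log2 values whose steps are not given in the sources used here. Each of its columns has a median of 8.20, and its centred values followed the log ratios (r between 0.912 and 0.976), so it served as an alternative. Per the labels, Cy5 is the rat and Cy3 the pool.

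Mean signals were background corrected in limma 3.58.1 (R 4.3.3) by normexp with an offset of 50, after 40 spots with local background over 50 above signal were dropped, and normalised by loess within arrays. Outlier-flagged and control spots were left out, and 1 file with a broken line end was read line by line. Probes with Cy5 well above background on at least 6 arrays were kept (25292). Log2 ratios were tested by 1 linear model over the 3 diets with moderated tests (16 residual and 3.32 prior degrees of freedom), two-sided, adjusted over all kept probes. Permutation tests drew 100000 shuffles within diets (Python 3.11.15). The number of arrays limits the precision, and intervals are at 95%.

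All member probes were named, with up to 4 genes of smallest p per list and comparison, the fixed genes Cyp3a2, Cyp1a2, Cyp1a1, Rxra, Arnt, Cyb5a, Hmox1 and Alas1 where they bear on a result, and up to 3 like genes for each called member. A few genes that this rule would name are not reported here. Members and lists were chosen with earlier results of these data known. Names came from the accession for 10830 probes, the symbol for 5172, a synonym for 3485 and the file alone for 134, and 21391 stayed unnamed. Alternatives changed the background correction, normalisation, filter, slide and replicate blocks, array weights and the livers included. The tests were checked on simulated data.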

Additional observations from a re-analysis of the deposited data

Results flagged for a closer look

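Of 24 groups of livers (8 probes, 3 diets), 4 held a liver whose gap to its nearest neighbour was large for the range of its diet by Dixon's test at 95%, where chance gives about 1 in 20. HP 3 lay at 0.84 for Por, against -0.18 for the next HP liver, and at 0.27 for Fmo4, against -0.03. HF 4 lay at 1.36 for Fmo2, against 0.46 for the next HF liver, and at 0.26 for Fmo4, against 0.02. The 4 values come from 2 livers and are each the highest of their diet. HF 4 was also the highest HF liver for Nr1i3, Nr1i2, Por and Fmo5, and HP 3 the highest HP liver for Fmo5. Why these livers stood apart was not tested.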

How the results depend on the processing

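Over processing alternatives and fits without 1 liver, 279 values of member probes were recomputed per comparison. In HF over HP all 279 kept direction and side of the threshold. In HF over Control 266 did, 4 lost a call (all Fmo4) and 9 gained one (all Por). In HP over Control 262 did, 3 gained a call (all Fmo5) and 14 changed sign, none of them called. The sign changes were Nr1i3 at -0.11 and -0.13 and Fmo1 at -0.22 with slide as a fixed block, Fmo1 at -0.0059 with outlier-flagged spots kept (an alternative chosen after seeing the data), Fmo2 at -0.0054 with median centring, and, without 1 liver, Nr1i2 at -0.0024 and -0.012, Fmo1 at -0.015, -0.061, -0.038 and -0.052 and Fmo2 at -0.020, -0.019 and -0.024. Over all fits without 1 liver these ran -0.012 to 0.12 for Nr1i2, -0.061 to 0.22 for Fmo1 and -0.024 to 0.039 for Fmo2. The cause was not tested. Without 1 liver, called probes numbered 649 to 999 in HF over Control (members 5 to 6), 26 to 460 in HP over Control (members 0 to 1), 1332 to 2518 in HF over HP (members 3 in each fit) and 1254 to 2141 by the F test. No member pair passed without Control 6.

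With slide as a fixed block, 474 probes passed in HF over Control against 874, 24 in HP over Control against 113, 365 in HF over HP against 1791, and 525 by the F test against 1663. HP over Control also gave 50 with processed signals, 61 with normexp on every spot, 63 with an offset of 10, 53 with Cy5 alone and 32 with median centring. With array weights it gave 289 (1 member) and HF over HP 3107.

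The replicate numbers showed no sign of pairing the rats. Like-numbered livers of different diets correlated at -0.0088 on average over 18 pairs, against 0.0011 over 102 other pairs. Of 19 livers 5 correlated best with their own number. A pairing that leaves no mark on expression would not be seen this way. Control 7 has no partner, so the block leaves it without weight. The replicate block gave 209 calls (1 member, Fmo5) in HP over Control and 692 (4 members) in HF over Control, where Fmo4 had an adjusted p of 0.0611 by limma. With this block the AHR target list had 0 calls in HP over Control.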

Other observations

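For Por and Nr1i2, which had no call, the genes below come from the same measure of likeness and were chosen here after their values were seen. Over the 18 livers other than Control 6, deviations from the diet mean of Por were most like those of Epm2a (r = 0.93), Tent4a (0.92) and Slc16a12 (0.90). Those of Nr1i2 were most like Cyp1a1 (0.86), Glyatl1 (0.86) and Dnaja2 (0.82). For Por, HF 4 and HP 3 stood far above the other livers of their diets, and its r values were not recomputed without them. Slc16a12, a monocarboxylate transporter gene, was 0.56 higher in HF over Control (adjusted p = 0.00341 by limma), while Cyp1a1 was not called there (0.25, adjusted p = 0.67).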
